A study of Bos taurus with 20 samples.

Results

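The genes described here are 10 enzymes of fatty acid synthesis, elongation and desaturation (ACLY, ACSS2, ME1, ACACA, FASN, ELOVL6, SCD, FADS2, ELOVL5 and FADS1), taken by symbol from the 33063 named genes of a table of raw read counts. All 10 symbols were in the table, and all 10 passed the filter on low counts, with at least 59 counts in every clone. The counts came from undifferentiated clonal populations of bovine mesenchymal stem/stromal cells (MSC), each grown from a single cell sorted from cultured adipose-derived MSC, with 1 RNA sequencing library per clone. The adipogenic (A) clones, 10 in number, had formed lipid-filled adipocytes when cells of the same clone were differentiated, and the 10 non-adipogenic (N) clones had not. Per the study, the A clones were picked for the highest share of lipid-stained cells, so they do not stand for all adipogenic clones. The study also reported that N clones grew faster than A clones. No treatment separated the groups: both were expanded in medium with fetal bovine serum and basic fibroblast growth factor, and RNA was taken before any induction of adipogenesis. The donors were Holstein Friesian x Aberdeen Angus calves, and the tissue was visceral fat. From animals 17 and 20 there was 1 clone of each kind, and from animals 22 and 23 there were 4 of each kind, so that 16 of the 20 libraries come from 2 animals.

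De novo fatty acid synthesis builds long-chain fatty acids from acetyl-CoA in the cytosol. ACLY cleaves citrate and ACSS2 activates acetate to supply acetyl-CoA, acetate being a main lipogenic carbon source in ruminants, and ME1 supplies NADPH. ACACA carboxylates acetyl-CoA to malonyl-CoA, and FASN assembles palmitate from it. ELOVL6 lengthens palmitate, SCD desaturates saturated chains to give palmitoleate and oleate, and FADS2, ELOVL5 and FADS1 act in turn on polyunsaturated fatty acids. SREBP factors, encoded by SREBF1 and SREBF2, are known activators of these genes, and the pathway is best known in adipose tissue for filling mature adipocytes with lipid.

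N libraries held 14908802 to 43111345 counts on named genes, and A libraries 14615493 to 29185355. Levels are given as CPM, the counts of a gene relative to the library total after scaling by edgeR's TMM factors. Gene length was not taken into account, so levels are compared between clones and not between genes. The MSC markers NT5E, THY1, ENG, CD44, ITGB1 and PDGFRA had counts in all 20 clones, and 0 of these 6 passed between A and N clones (edgeR quasi-likelihood F test, adjusted over all genes tested). N clone 22-5 nearly lacked 2 of them, with 9 counts of NT5E and 7 of THY1 (0.508 and 0.395 CPM, against medians over all clones of 109 and 60.1 CPM), and its ENG level of 19.1 CPM was the lowest. Of 6 macrophage genes, summing to 0.649 to 10.6 CPM in N and 2.75 to 11.4 CPM in A clones, PTPRC, which marks leukocytes, was at 0 counts in 18 of the 20 clones, but CD68, the only gene tested, was higher in A clones (log2 difference 1.06, adjusted p = 0.0157). CSF1R, below the filter, was at 0 to 0.255 CPM in N and 0.476 to 2.38 CPM in A clones. Of 8 mature adipocyte genes, summing to 5.76 to 123 CPM in N and 18.5 to 98.4 CPM in A clones, 5 were tested and PLIN1 was higher in A clones (log2 difference 0.53, adjusted p = 0.0456). The other 4 did not pass, and 1 of them, CIDEC, had a negative difference (-0.64, adjusted p = 0.129, edgeR). Among the 8 genes ADIPOQ stayed at or under 1.52 CPM, while LPL reached 90.6 CPM and FABP4 25.4 CPM. N clones 22-5 and 22-9 stood apart in a list of 7 mesothelial genes, whose summed level was 9198 and 6512 CPM there, while the remaining N clones held 8.82 to 276 CPM and the A clones 7.73 to 1095 CPM. MSLN was lower in A clones (log2 difference -1.97, adjusted p = 0.0393, edgeR), and the other 5 mesothelial genes tested did not pass. A list of 10 proliferation genes summed to 132 to 645 CPM in N clones and 36.5 to 379 CPM in A clones. Of the 10, 6 were lower in A clones at an adjusted p under 0.05 (edgeR), against 10.3% of all genes tested.

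The comparison asked how the A clones, picked for high adipogenic capacity, differed from the N clones before differentiation. Of the 10 genes, 6 were lower in A clones (SCD, FADS2, FADS1, ACSS2, FASN and ELOVL5) and 0 were higher, at an adjusted p under 0.05 from the edgeR quasi-likelihood F test with animal as a block. Among all 12900 genes tested, 20.6% passed by the same rule, 10.3% lower and 10.3% higher in A clones. In 4 of the 10 (SCD, FADS2, FADS1 and ACSS2) the decrease was at least 2-fold, against 1.81% of all genes, while 3.95% of all genes and none of the 10 were at least 2-fold higher. In bulk RNA, fewer cells transcribing a gene and less RNA per cell cannot be told apart. ACACA, ELOVL6, ACLY and ME1 did not pass. The median log2 difference, A minus N, was -0.74 over the 10 genes and -0.01 over all genes tested. Without N clones 22-5 and 22-9, a fit chosen after the values were seen, 4 of the 10 genes passed (SCD, FADS2, FADS1 and ELOVL5), and FASN and ACSS2 had adjusted p-values of 0.127 and 0.0821. The number of all genes that passed in this fit is not given here, so a general loss of calls cannot be told apart. Without animal 22, 3 of the 10 passed (SCD, ELOVL5 and FADS2), where 1471 of all 12816 genes tested did. Without animal 23, 0 of the 10 passed by edgeR (7 at an unadjusted p under 0.05), where 32 of all 13071 genes tested did. The part of the mesothelial, proliferation, macrophage and adipocyte genes in these differences was not tested.

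**Figure D1:**
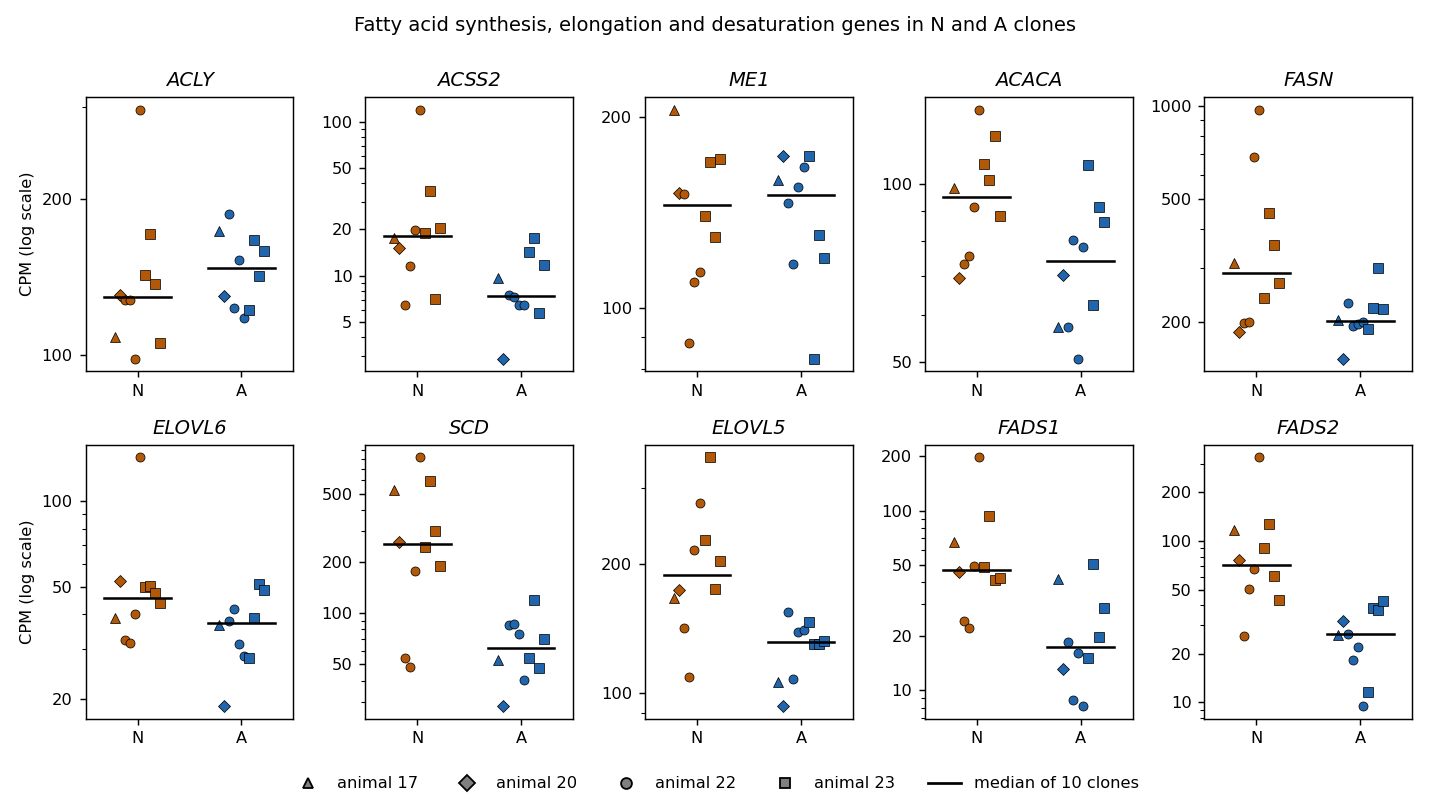
Level of each of the 10 genes in every clone, in CPM on a log axis, with N clones on the left and A clones on the right of each panel. Each point is 1 clone, marker shapes give the animal and the bar is the median of 10 clones. For FADS2 9 N clones lie above every A clone, and for SCD and for ELOVL5 8 do. Within the range of the A clones lie 6 N clones for ACLY and 9 for ME1.

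SCD, the desaturase that makes oleate, showed the largest difference of the 10. Its level was 48.2 to 819 CPM in N clones (median 253) and 28.4 to 119 CPM in A clones (median 62.1). Of the N clones, 8 lay above every A clone, and the other two, 22-17 and 22-18, held 54.5 and 48.2 CPM, inside the range of A clones. The log2 difference, A minus N, was -2.30 (standard error 0.458, adjusted p = 0.00377, edgeR). It was negative in all 4 animals, from -3.31 in animal 17 to -1.03 in animal 22, by the means of log2 CPM. In animal 23 the 4 A clones all lay below the 4 N clones, whereas in animal 22 only 1 A clone did. The call held in all 20 fits that each left out 1 clone.

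FADS2, ELOVL5 and FADS1, which act in turn on polyunsaturated fatty acids, each passed as lower in A clones. FADS2, which catalyses the entry step of that pathway, was at 25.7 to 331 CPM in N clones (median 71.4) and 9.46 to 42.6 CPM in A clones (median 26.4). Only N clone 22-17, at 25.7 CPM, fell inside the range of A clones. Its log2 difference was -1.92 (standard error 0.434, adjusted p = 0.00723, edgeR), and it was between -2.15 and -1.25 within the 4 animals.

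FADS1, which acts later in the same pathway, was at 22.3 to 198 CPM in N clones (median 46.9) and 8.14 to 50.4 CPM in A clones (median 17.4). Here 7 A clones were lower than any N clone, while A clones 17-57 and 23-14, at 41.6 and 50.4 CPM, reached the median of the N clones or came near it. The log2 difference was -1.64 (standard error 0.426, adjusted p = 0.0144, edgeR), and it lay between -1.97 (animal 22, where all 4 A clones were below the 4 N clones) and -0.69 (animal 17) within the animals.

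ELOVL5, the elongase that works between these desaturases, differed by less and varied less. It was at 109 to 354 CPM in N clones (median 189) and 93.3 to 155 CPM in A clones (median 132). Again 8 N clones lay above every A clone and N clones 22-17 and 22-18, at 142 and 109 CPM, lay within the A range. The log2 difference was -0.67 (standard error 0.159, adjusted p = 0.00909, edgeR), negative in all 4 animals. The calls of FADS2, FADS1 and ELOVL5 held in all 20 fits without 1 clone.

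In RefSeq's order of protein-coding genes (assembly ARS-UCD2.0), FADS1, FADS2 and FADS3 are neighbours. FADS3, a related desaturase of the same cluster, was at 69.3 to 311 CPM in N clones (median 124) and 147 to 315 CPM in A clones (median 230). It was higher in A clones, opposite to its neighbours, with a log2 difference of 0.73 (standard error 0.229, adjusted p = 0.0327, edgeR). Of the N clones, 3 lay inside the range of A clones and the others below it, and 1 A clone lay above every N clone. The call was lost, with adjusted p-values of 0.0506 to 0.0689, in the 10 fits without N clone 17-23, 20-15, 22-9, 23-10, 23-22 or 23-23 or A clone 17-57, 20-106, 22-27 or 23-14. It was also lost without N clones 22-5 and 22-9 together (adjusted p = 0.0858). Over 17 fits with other processing or fewer clones, the log2 difference of FADS3 ranged from 0.08 to 1.16, and 11 passed. The highest value came without animal 22 (adjusted p = 0.00615, edgeR), and the highest adjusted p of the 17 was 0.923. SCD5, the other stearoyl-CoA desaturase of cattle, reached 36.4 CPM in N clones (median 6.30) and 40.0 CPM in A clones (median 14.8), with a log2 difference of 0.76 that did not pass (standard error 0.520, adjusted p = 0.301, edgeR).

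FASN, the fatty acid synthase itself, was at 185 to 973 CPM in N clones (median 288) and 152 to 299 CPM in A clones (median 202). The study named FASN among the transcripts upregulated in A clones, which is opposite to the direction found here. DESeq2 without the animal block also gave a negative log2 difference (-0.87, adjusted p = 0.0151). The A clones were close together, and the N clones spread upward from the same level: 5 N clones lay above every A clone, led by 22-9 at 973 and 22-5 at 686 CPM, and the other 5 lay between 185 and 267 CPM. The log2 difference was -0.81 (standard error 0.267, adjusted p = 0.0398, edgeR). It was -0.97 in animal 22 and between -0.61 and -0.28 in the other animals. The call was lost, with adjusted p-values of 0.0544 to 0.0721, in 13 of the 20 fits without 1 clone, namely those without N clones 17-23, 22-5, 22-9, 23-22 or 23-23 or without A clones 17-57, 22-11, 22-16, 22-27, 22-121, 23-14, 23-68 or 23-108.

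ACACA, which makes the malonyl-CoA that FASN uses, was at 69.3 to 134 CPM in N clones (mean 96.1 ± 20.9, SD, n = 10) and 50.6 to 108 CPM in A clones (mean 74.2 ± 18.0, SD, n = 10). Its log2 difference of -0.38 had a 95% interval of -0.66 to -0.09 and an adjusted p of 0.0558 (edgeR), just outside the threshold. Animals 17, 22 and 23 gave negative differences, and animal 20 gave 0.02. The call was gained, with adjusted p-values of 0.0377 to 0.0484, without N clone 20-15, 22-17 or 22-18 or A clone 20-106, 22-121 or 23-108. The isoform ACACB was left out by the filter, with at most 15 counts in any clone.

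ACSS2, the cytosolic enzyme that activates acetate, had the lowest counts of the 10 genes. It was at 6.50 to 120 CPM in N clones (median 18.3) and 2.89 to 17.5 CPM in A clones (median 7.38). Of the N clones, 6 lay above every A clone, and N clone 22-9, at 120 CPM, was far above the next N clone, 23-22, at 35.7 CPM. The log2 difference of -1.62 (standard error 0.497, adjusted p = 0.0308, edgeR) was negative in all 4 animals, from -2.34 in animal 20 to -0.63 in animal 23. Without N clone 22-9 it was -0.96 (adjusted p = 0.0394), and without N clone 20-15 or 23-22 or A clone 20-106, 22-11, 22-16 or 22-27 its adjusted p was 0.0556 to 0.0586.

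The other enzymes of carbon and NADPH supply did not pass, and their intervals held 0. ACLY was at 98.6 to 297 CPM in N clones (median 129) and 118 to 187 CPM in A clones (median 147). Its log2 difference was 0.03, with a 95% interval of -0.34 to 0.41. ME1 was at 87.8 to 206 CPM in N clones (median 145) and 83.1 to 174 CPM in A clones (median 151), with a log2 difference of 0.01 and an interval of -0.29 to 0.31. The adjusted p-values were 0.907 and 0.962 (edgeR), and for both genes the sign differed between animals, 2 of 4 being lower in A clones.

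ELOVL6, the elongase of palmitate, was at 31.6 to 143 CPM in N clones (median 45.5) and 18.9 to 50.9 CPM in A clones (median 37.2). Its level was lower in A clones in all 4 animals, yet the log2 difference of -0.56 did not pass (95% interval -1.11 to -0.02, adjusted p = 0.123, edgeR). Much of it came from N clone 22-9, at 143 CPM against at most 52.1 CPM in the other N clones, and without that clone the log2 difference was -0.24 (adjusted p = 0.271).

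**Figure D2:**
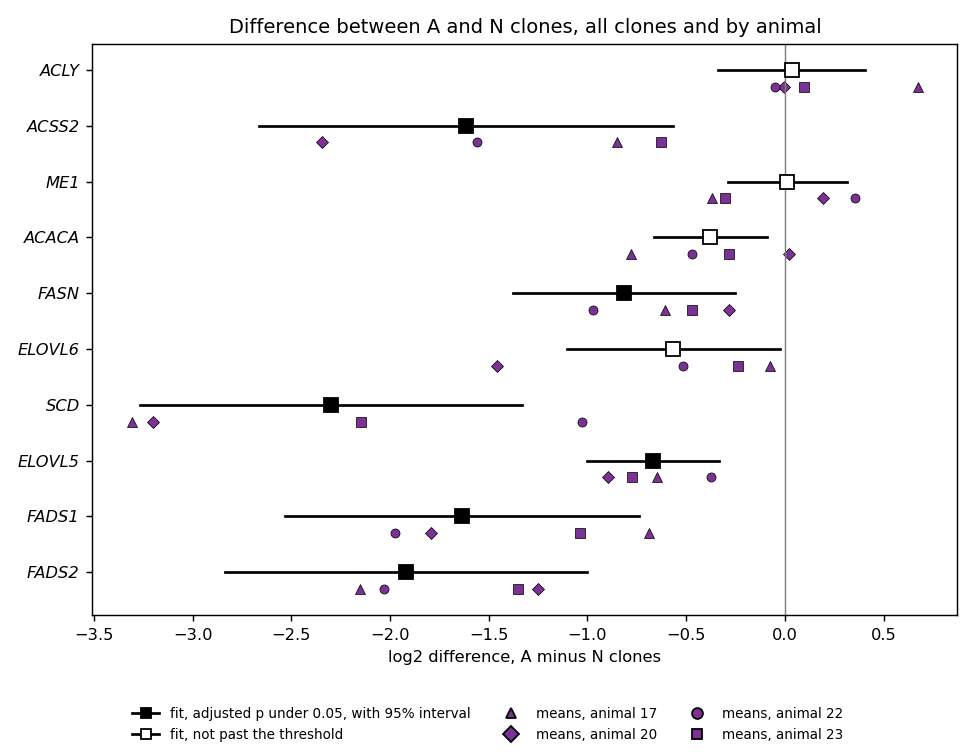
Log2 difference, A minus N clones, of the 10 genes. Squares with bars give the fit over 20 clones with its 95% interval, filled where the adjusted p is under 0.05, and the smaller symbols below give the difference of mean log2 CPM within each animal; 7 of the 10 genes are below 0 in all 4 animals, and SCD lies farthest from 0.

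By the means of log2 CPM, 7 of the 10 genes (the 6 that passed and ELOVL6) were lower in A clones in all 4 animals, against 17.4% of all genes tested. For none of the 10 were the A clones all below the N clones, a pattern seen in 0.093% of all genes, or all above them, seen in 0.225%. In the 16 clones of animals 22 and 23, 0 of the 10 genes had an adjusted p under 0.05 for the interaction of condition and animal (edgeR quasi-likelihood F test), and 0 had an unadjusted p under 0.05, where 0.031% of all genes passed. The intervals were wide. The log2 difference of FASN in animal 23 minus that in animal 22 was 0.83 (95% interval -0.45 to 2.10), and that of ACSS2 was 1.77 (-0.46 to 4.01).

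The N clones were not alike. The plot of levels by clone orders the 20 clones by the mean of the standardised log2 CPM over the 10 genes. N clone 22-9 was highest of all clones for 8 of the 10 genes, and N clone 23-22 was among the 5 highest for all 10. At the other end, N clones 22-17 and 22-18 fell among the A clones, with mean values of -0.45 and -0.62 against -0.94 to -0.11 in A clones, while the other 8 N clones were between 0.18 and 2.13. N clones 22-17 and 22-18 summed to 256 and 132 CPM over the 10 proliferation genes and to 6809 and 9973 CPM over 7 smooth muscle and pericyte genes, where the other N clones held 244 to 645 and 1083 to 6918 CPM and the A clones 36.5 to 379 and 4055 to 11340 CPM. Among A clones, 20-106 was lowest of all 20 clones for 5 genes (SCD, ACSS2, ELOVL5, ELOVL6 and FASN). It also had the lowest sum of proliferation genes, 36.5 CPM. The part of these marker genes in the levels was not tested.

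**Figure D3:**
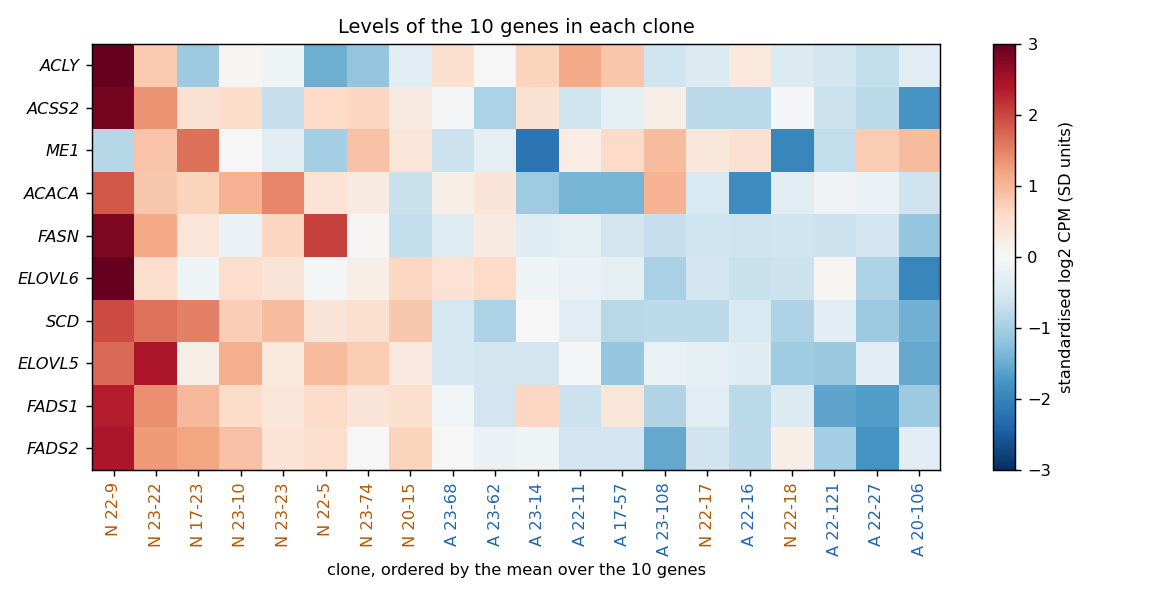
Standardised log2 CPM (in SD units over the 20 clones) of the 10 genes, with clones ordered from left to right by their mean over the genes and N and A clone names in brown and blue. The 8 clones on the left are N clones, N clone 22-9 is darkest for most genes, and N clones 22-17 and 22-18 stand among the A clones.

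The log2 levels varied more among N than among A clones in 9 of the 10 genes, ACACA being the exception, while 61.9% of all genes tested had the larger SD among N clones. For FASN the SD of log2 CPM was 0.81 among N clones and 0.25 among A clones, and for SCD it was 1.35 and 0.60. FADS1 varied about as much in both, with SDs of 0.91 and 0.86.

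Within a condition, the other 9 genes and SREBF1 were each related to FASN over the 10 clones, which gave 20 relations. The permutations took no account of the animal, so clones sharing an animal were treated as independent. None had a permutation p under 0.05 after Benjamini-Hochberg adjustment over the 20, and 8 had an unadjusted p under 0.05 for Pearson's r, 7 of them in N clones. The strongest in N clones was with FADS1 (r = 0.79, permutation p = 0.00678, adjusted 0.0678; rho = 0.70, permutation p = 0.0306, adjusted 0.157). Without N clones 22-9 and 22-5, which lie farthest from the median of FASN, r was 0.75, and over the 8 N clones of animals 22 and 23, centred within animal, it was 0.89. With SREBF1, r in N clones was 0.65 (permutation p = 0.0425, adjusted 0.106) and rho was 0.60 (permutation p = 0.0738, adjusted 0.179). This relation rested on clones 22-9 and 22-5, since r was 0.29 without them. Centred within animals 22 and 23, with both clones still included, r was 0.96. In A clones the strongest relation of FASN was with ELOVL6 (r = 0.84, permutation p = 0.00311, adjusted 0.0622; rho = 0.73, permutation p = 0.0207, adjusted 0.157), with r = 0.59 without A clones 23-62 and 20-106 and 0.67 when centred within animals 22 and 23. Whether the relations differ between A and N clones was not tested.

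Of the regulators of lipogenesis, 14 of 17 listed genes were tested, 5 fell (35.7%) and 2 rose (14.3%) in A clones, with a median log2 difference of -0.09. The list mixes activators of lipogenesis with genes that restrain it, so these counts give no direction for lipogenic drive. Of all genes tested, 10.3% fell and 10.3% rose, so the share that rose was near the background. SREBF1, which encodes the factor best known for driving fatty acid synthesis genes, was at 68.9 to 184 CPM in N clones (median 120) and 44.2 to 97.5 CPM in A clones (median 67.9). Its log2 difference was -0.92 (standard error 0.196, adjusted p = 0.00519, edgeR), and 6 A clones were lower than any N clone. SREBF2, whose product mainly activates cholesterol synthesis, had a log2 difference of -0.999 (standard error 0.254, adjusted p = 0.0129, edgeR). It fell from a median of 108 CPM to 60.1 CPM.

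INSIG1, which holds SREBP precursors in the endoplasmic reticulum and is itself an SREBP target, fell from a median of 55.1 CPM (19.1 to 156) to 19.0 CPM (5.88 to 48.0), a log2 difference of -1.76 (standard error 0.415, adjusted p = 0.00897, edgeR). Its relative INSIG2 was 0.39 higher on the log2 scale (adjusted p = 0.0228, and 0.0580 without the animal block). MID1IP1, which promotes polymerisation of acetyl-CoA carboxylase, had a log2 difference of -0.85 (adjusted p = 0.0192), and NR1H3, the nuclear receptor LXR alpha, one of 0.42 (adjusted p = 0.0366). Of these 6 regulators, SREBF1, SREBF2 and MID1IP1 also passed without N clones 22-5 and 22-9, where INSIG1 had an adjusted p of 0.0538, INSIG2 of 0.0671 and NR1H3 of 0.108. The call of NR1H3 was lost in 11 of the 20 fits without 1 clone (N clones 17-23, 20-15, 22-5, 22-9, 22-17, 23-10 and 23-74 and A clones 17-57, 20-106, 22-27 and 22-121), with adjusted p-values of 0.0522 to 0.0813, and without the filter on low counts (0.0564). THRSP, a lipogenic regulator of mature fat tissue, had 0 counts in all clones.

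The other lists were counted against the same background of 10.3% in each direction. Among 22 further enzymes of synthesis, elongation and desaturation, 17 were tested, 0 fell and 2 rose (11.8%, near the background), FADS3 and HACD1, a dehydratase of the elongation cycle (log2 difference 0.77, adjusted p = 0.00652, edgeR). Their median log2 difference was 0.05. Of 7 genes that supply carbon or NADPH, PGD and PGLS of the pentose phosphate pathway fell, by 0.30 and 0.28 on the log2 scale (adjusted p = 0.0239 and 0.0353), and IDH1, the cytosolic NADP-dependent isocitrate dehydrogenase, rose by 0.72 (adjusted p = 0.0399). The call of IDH1 was lost in 12 fits without 1 clone (N clones 20-15, 22-9, 23-10, 23-22, 23-23 and 23-74 and A clones 20-106, 22-11, 22-16, 22-27, 23-68 and 23-108; adjusted p 0.0530 to 0.0710). That of PGLS was lost in 10 (N clones 22-5, 23-10, 23-22, 23-23 and 23-74 and A clones 22-16, 22-27, 23-14, 23-68 and 23-108; adjusted p 0.0507 to 0.0620). Both calls were also lost without the filter on low counts (0.0525 and 0.0536). Without N clones 22-5 and 22-9, PGD, PGLS and IDH1 had adjusted p-values of 0.0746, 0.0847 and 0.0559. Of 6 genes of fatty acid activation and acyl-CoA binding, DBI fell by 0.74 (adjusted p = 0.00948) and ACSL6 rose by 1.73 (adjusted p = 0.0207), and the other 4 did not pass. The call of ACSL6 was lost without the animal block (log2 difference 1.28, adjusted p = 0.248, edgeR, and 0.174, DESeq2), with limma-voom (0.0683) and without N clones 22-5 and 22-9 (0.0538).

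Fatty acid oxidation, which degrades what these enzymes build, showed 1 gene lower and 1 higher of 17 tested (5.88% each, below the background), with a median log2 difference of -0.03. ACADL, a long-chain acyl-CoA dehydrogenase, was 0.86 higher (adjusted p = 0.00904, edgeR) and ETFB, which passes electrons from these dehydrogenases, was 0.35 lower, a log2 difference of -0.35 (adjusted p = 0.0138). In 10 genes of cholesterol synthesis and uptake, 7 fell and 0 rose, with a median log2 difference of -1.14. FDFT1, LSS, IDI1 and DHCR7 had log2 differences of -1.88, -1.36, -1.48 and -1.04, but 1 of the 10 genes, DHCR7, passed without N clones 22-5 and 22-9 (adjusted p = 0.0495). The call of IDI1 was lost without N clone 22-9 or 23-22 (adjusted p = 0.0699 and 0.0606), and that of DHCR7 without N clone 23-22 or A clone 22-16 or 22-27 (0.0528 to 0.0612).

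The genes whose pattern over the 20 clones was most like that of the 10 genes were named by the Pearson correlation of their log2 CPM with the mean of the standardised log2 CPM of the 10. They were IDI1 (r = 0.93), FDPS (0.91), DHCR7 (0.89), FDFT1 (0.89), LSS (0.88), INSIG1 (0.85), SWSAP1 (0.84) and MSMO1 (0.84). These correlations are a description over clones that share animals and conditions. The mean of the 10 was itself higher in most N clones, so a choice by likeness to it favours genes that are lower in A clones. The differences between A and N clones of the genes so chosen are therefore no separate evidence. After values were centred within condition and animal, over the 16 clones of animals 22 and 23, the same genes gave r between 0.76 for INSIG1 and 0.92 for DHCR7. MSMO1 itself did not pass the test between A and N clones (log2 difference -1.06, adjusted p = 0.0615, edgeR; 0.0496 and 0.0430 without N clone 22-5 or 22-18, and 0.0250 by DESeq2), while FDPS and SWSAP1 had log2 differences of -1.09 and -0.87 (adjusted p = 0.0263 and 0.0178). Both calls were lost without N clones 22-5 and 22-9 (0.102 and 0.0869), that of FDPS also without N clone 22-9 or 23-22 (0.0606 and 0.0552) and that of SWSAP1 with limma-voom (0.0630).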

How the data were processed

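The table deposited by the authors holds raw counts of reads for each gene in each clone. Per the labels and the methods of the study, reads were trimmed with Trimmomatic 0.36, mapped with STAR 2.5.2b to ARS-UCD1.2 and counted with featureCounts of Subread 1.5.2, keeping unique reads within exons. The library kit marks strand, but the strand setting of the counting is not given in the sources used here, so counts of overlapping or near-identical genes are uncertain. Of 33064 rows, 1 had no name, held 0.113 to 0.333% of a clone's counts and was left out. The number of columns from other series was 0. No clones had identical counts.

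Differential expression was computed in R 4.3.3 with edgeR 4.0.16 (TMM, default expression filter, robust quasi-likelihood F test, Benjamini-Hochberg adjustment over 12900 genes, animal as a block, all 20 clones). Log2 CPM used a prior count of 2. The block rests on A and N clones sharing a donor animal. Their mean departures from the 2 groups' averages were correlated in animal 17 (0.253), animal 20 (0.193), animal 22 (0.241) and animal 23 (0.440). Relations to FASN used two-sided permutation tests with 100000 resamples. Alternatives were DESeq2 1.42.0, limma-voom (limma 3.58.1), other scalings, filters and dispersion estimates, no block, summed counts, and clones or animals left out. The fits were tested on simulated counts with planted log2 changes of 1 and 2. With the animal block, edgeR recovered 68% and 94% of these, with 9 false calls, and DESeq2 75% and 98%, with 36 false calls. With limma-voom 70% and 92% were recovered, with 5 false calls. The interaction fit in 16 clones recovered 11% and 64%, with 2 false calls.

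The 10 genes and all lists were chosen with earlier results of these data known. Named were the 10 genes, SREBF1, SREBF2, INSIG1, SCD5, FADS3 and ACACB, at most 4 genes per list and direction by smallest adjusted p, and the 8 genes most correlated with the mean of the 10. MLXIPL and other genes left out by the filter were not tested. THRSP and marker genes were named to describe their lists. P-values measure the spread between clones, most of them from 2 animals.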

Additional observations from a re-analysis of the deposited data

Results flagged for a closer look

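For each gene named here, the extreme A and N clones were examined by Dixon's ratio, which is their distance in log2 CPM to the next clone as a share of all 10 clones' range. It passed the 95% critical value in 5 of the 66 cases, and chance alone would give 3.3. N clone 22-9 stood above the other N clones for ELOVL6, with 143 CPM against at most 52.1 CPM and a gap of 0.669 of the range, and for ACLY, with 297 CPM against at most 172 CPM and a gap of 0.498. The same clone was 1 of the 2 N clones with high mesothelial sums. A clone 23-14 was lowest among A clones for ME1, at 83.1 CPM against at least 117 CPM, with a gap of 0.467, close to the critical value. A clone 20-106 was highest for ACSL6, at 108 CPM against at most 21.1 CPM (gap 0.522), and N clone 23-23 was lowest for ACADL, at 4.14 CPM against at least 6.88 CPM (gap 0.586). The cause was not tested for any of them.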

How the results depend on the processing

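The number of the 10 genes lower in A clones stayed between 5 and 7 with other scalings, filters, dispersion estimates, DESeq2, limma-voom or no replicate block, and 0 were higher in any fit. DESeq2 with the block called 7, ACACA included, and limma-voom 5, with ACACA but without FASN (adjusted p = 0.0544) and ACSS2 (0.0768). Without the replicate block the same 6 genes passed in edgeR, and of the other named genes the calls of INSIG2 and ACSL6 were lost. Leaving out 1 clone gave 4 to 7 genes. DESeq2 without the block gave 6. Without animal 22 there were 3, without animal 23 there were 0 (7 at an unadjusted p under 0.05), animal 22 alone gave 0 (4 unadjusted), animal 23 alone gave 1, and counts summed per animal and condition gave 0 (6 unadjusted), all by edgeR with fewer samples. Few genes of any kind passed in some of these fits. Of all genes tested, 1471 of 12816 passed without animal 22 and 32 of 13071 without animal 23. In animal 22 alone 153 of 13305 passed, in animal 23 alone 800 of 12853, and with summed counts 0 of 14669. Further genes of the supply, synthesis, activation and regulator lists called in either direction numbered 14 in all clones, 10 to 16 without 1 clone, 8 without animal 22, 0 without animal 23 (12 unadjusted), 0 in animal 22 alone (7 unadjusted), 7 in animal 23 alone, 0 with summed counts (13 unadjusted) and 5 without N clones 22-5 and 22-9, a fit chosen after the data were seen. For that last fit the number of all genes called is not given here. The sign turned for 2 genes near 0. ME1 was -0.00487 without the replicate block, -0.0118 by limma-voom, -0.00923 without animal 20, -0.20 without animal 22, -0.26 in animal 23 alone, -0.0547 without N clones 22-5 and 22-9, and -0.0511 to 0.0866 without 1 clone. ACLY was -0.0363 without animal 17, -0.00228 without animal 23, -0.17 in animal 22 alone and -0.0367 to 0.215 without 1 clone. The relations to FASN stayed at 0 called with DESeq2 size factors or a prior count of 0.5, and the interaction at 0 in each of its alternatives. The lowest count of any of the 10 genes was 59, for ACSS2.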
